A study of Mus musculus with 6 samples.

Results

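The genes described are 10 genes of Notch signalling and neurogenesis, chosen by name with earlier results of these data known. They are the receptors Notch1 and Notch2, the ligands Dll1, Dll3 and Jag1, the receptor-modifying enzyme Mfng, the transcription factors Hes1, Hes5 and Hes6, and the repressor Bcl6. All 10 were measured, by 17 probe sets annotated to these genes alone, among 45037 probe sets and 18193 genes on the arrays. Each of 6 single-colour Affymetrix arrays held RNA of mouse dorsal telencephalon, the tissue that forms the cerebral cortex, at E14.5, an embryonic stage at which cortical progenitors are making neurons. The 3 WT arrays and the 3 cKO arrays share the C57BL\6 background and the label male. The cKO embryos carry a conditional deletion, made with Emx2Cre, of the histone H3 lysine 9 methyltransferase ESET, encoded by Setdb1. Emx2Cre acts in cells of the Emx2 lineage and not in every cell of the dissected tissue. Whether WT embryos carried Cre, and which exons were deleted, is not given in the labels, so the Cre allele and the deletion cannot be told apart as the source of a difference. The design names 3 embryos of each genotype, and each array is treated here as 1 sample; arrays are called by group and title number, as in WT 1.

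Notch receptors sit on the cell surface and are activated by Delta-like and Jagged ligands on neighbouring cells. Cleavage then frees the receptor's intracellular part, which joins the DNA-binding protein Rbpj in the nucleus and switches on Hes and Hey genes. In the embryonic cortex, Hes1 and Hes5 keep radial glia dividing by repressing proneural genes, while cells that become neurons express the ligands. Bcl6 is a transcriptional repressor that promotes the switch from progenitor to neuron, and Hes5 is among the genes it is known to silence in the cortex.

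Levels below are linear array intensities. Fold changes are differences of group means of log2(intensity + 16), cKO minus WT. A gene was called when its adjusted p in limma, over all 18193 genes with 1 probe set each, was below 0.05. Trimmed means of the arrays lay between 497.2 and 497.7, and array pairs correlated at 0.96 or more across probe sets. Medians were less even, from 91.1 on WT 2 to 119 on cKO 3, a range of 0.33 in log2. Setdb1 itself read 633 ± 115 in cKO against 1126.5 ± 81.9 in WT (SD, n = 3) on its brightest probe set. Its log2 fold change was -0.83 with no overlap, short of the threshold (limma adjusted p = 0.137). A dim further Setdb1 probe set, with means of 67.2 in WT and 22.8 in cKO, gave -1.14 without overlap. Another, at 51.5 and 33.5, gave -0.44 with overlapping groups. Of 10 dorsal telencephalon markers, 9 were measured and 0 were below an intensity of 16 on all arrays, and their summed intensity ran from 45822 to 50415 in WT and from 44085 to 52245 in cKO, a sum led by Neurod6 (means of 16973 and 19388). In this list 0 genes were called, and 4 of the 9 had a log2 fold change above 0. The groups lay apart with cKO below for 2 of the 9 and above for 1, against 7.64% and 7.9% of all genes. Emx2, whose name the Cre line carries, was lower in every cKO array, at means of 1241 and 688 (log2 fold change -0.83, limma adjusted p = 0.0714). So was Eomes, of intermediate progenitors, at 4819.6 and 3126 (-0.63, limma adjusted p = 0.140). Neurog2 was higher in every cKO array, at means of 6767 and 7395 (0.13, limma adjusted p = 0.823). WT 3 and cKO 3 stood apart. Summed over 8 erythroid markers, they read 69349 and 73962, against 11212 to 17175 on the other arrays. WT 3 had an Xist intensity of 17294 and cKO 3 of 8811, against at most 59.0 on the others, although all arrays are labelled male. The Y-linked genes Eif2s3y and Kdm5d read 22.2 and 10.2 on WT 3 and 961 and 663 on cKO 3, against at least 1927 and 909 on the others, so that cKO 3 had both kinds of signal, which 1 male embryo per array would not give. Results that rest on these arrays are given with and without them.

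Bcl6 fell in cKO and was the only one of the 10 genes to pass the threshold. In the list, 1 gene was called lower and 0 higher, where 0.242% of all genes were called lower and 0.385% higher. At an unadjusted p below 0.05, 1 was lower and 2 were higher, against 4.39% and 5.17% of all genes. The groups did not overlap for 3 of the 10, against 15.5% of all genes: Bcl6 was below in every cKO array, and Dll1 and Jag1 were above. The median log2 fold change of the 10 was 0.12, and that of all genes 0.01. Because the list was chosen with earlier results of these data known, these counts are not a test of it.

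**Figure D1:**
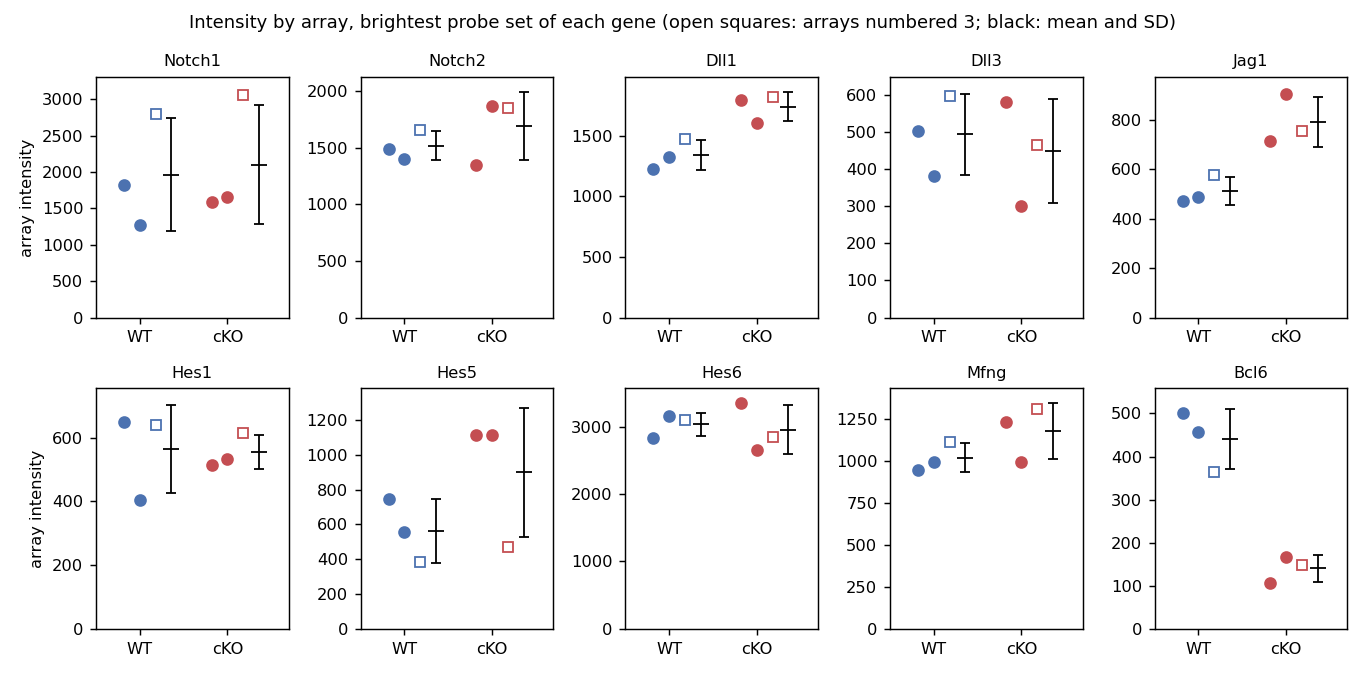
Array intensity (linear axes from 0) of the brightest probe set of each of the 10 genes, 1 point per array, with the arrays numbered 3 as open squares and the mean and SD of 3 arrays in black. Groups are apart for Bcl6 (364 to 502 in WT, 107 to 168 in cKO), Dll1 and Jag1, and Notch1 and Hes5 have their arrays numbered 3 away from the other arrays of the group.

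The ligands are taken first. Dll1, the Delta-like ligand that new neurons and intermediate progenitors present to radial glia, read 1224, 1326 and 1468 on WT 1, WT 2 and WT 3 and 1794, 1606 and 1819.8 on cKO 1, cKO 2 and cKO 3. Every cKO array was above every WT array. This came to a log2 fold change of 0.38 (SE 0.13, 95% interval 0.06 to 0.69), and it did not pass over all genes (limma adjusted p = 0.408). Dll1 has 1 probe set, and over the fits that left out 1 array its log2 fold change ran from 0.31 to 0.44. Eomes, of intermediate progenitors, was lower in every cKO array (-0.63), and its part in the Dll1 value was not tested.

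Jag1, a Jagged ligand with roles in cortical progenitors and in blood vessels, had 3 probe sets. The brightest read 472, 486 and 576 in WT and 712, 904 and 755 in cKO, with no overlap. Its log2 fold change was 0.61 (SE 0.15, 95% interval 0.25 to 0.97), also short of the threshold (limma adjusted p = 0.211). The other probe sets were dimmer and their groups overlapped. One read 179, 192 and 164 in WT against 203, 232 and 187 in cKO, and the other 54.4, 48.7 and 63.9 against 63.7, 43.5 and 110.2. Their log2 fold changes were 0.20 (SE 0.15) and 0.24 (SE 0.29) in the fit over all probe sets, smaller than that of the brightest.

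Dll3, a divergent ligand that acts inside the cell and does not activate receptors on neighbours, read 503, 381 and 598 in WT and 580.3, 302 and 466 in cKO. The groups overlapped and each spread over much of the other's range. The log2 fold change was -0.16 (SE 0.28, 95% interval -0.82 to 0.51). Leaving out cKO 2, the lowest array, turned it to 0.10.

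Both receptors overlapped between the groups. Notch1, the main Notch receptor of cortical radial glia, read 1826, 1272 and 2797 in WT and 1593, 1662 and 3054 in cKO on its brightest probe set. Its high arrays were WT 3 and cKO 3, which lay 0.87 and 0.90 (log2) above the mean of the other arrays of their group. The second probe set repeated this order, at 319, 153 and 555 in WT and 270.3, 301 and 574 in cKO, with deviations of 1.26 and 0.97. Of all 18193 genes, 241 (1.32%) lay at least as far above on both arrays, counting Notch1.

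The log2 fold change of Notch1 was 0.10 (SE 0.37, 95% interval -0.78 to 0.99), an interval that holds sizeable changes in both directions. With the arrays numbered 3 as a block it was 0.10 with an SE of 0.16, and without both arrays 0.09 with an SE of 0.22. Leaving out WT 2 or cKO 3 alone turned it to -0.17 and -0.20. The erythroid marker sum and Xist were high on the same arrays, and their part in the Notch1 and Hes5 levels there was not tested.

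Notch2, a receptor that radial glia express beside Notch1, read 1489, 1403 and 1658 in WT and 1344, 1870.4 and 1852 in cKO. Here cKO 1 was below every WT array and the other cKO arrays were above them. For Notch2 the log2 fold change was 0.14 (SE 0.17, 95% interval -0.27 to 0.56). A second probe set was dim, with means of 44.4 and 42.9, and at 0.0045 (SE 0.36) in the fit over all probe sets. It came to -0.56 without both arrays numbered 3.

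Mfng encodes manic fringe, a Golgi enzyme that extends sugars on Notch receptors and alters which ligands activate them. It read 949, 995 and 1117 in WT and 1232, 996 and 1313 in cKO, so that only cKO 2 lay within the WT range. It had a log2 fold change of 0.20 (SE 0.15, 95% interval -0.17 to 0.57).

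Among the Hes factors, which carry out much of the Notch response, none passed. Hes1 read 649, 405 and 639.6 in WT and 514, 532 and 614 in cKO, with all 3 cKO arrays inside the WT range. Its log2 fold change was -0.0008 (SE 0.21), with a 95% interval of -0.51 to 0.51. Hes6, a relative that opposes Hes1 and promotes neuronal differentiation, read 2836, 3161 and 3102 in WT and 3357, 2655 and 2851 in cKO. The cKO arrays lay on both sides of the WT range, and the log2 fold change was -0.04 (SE 0.14, 95% interval -0.38 to 0.29). The name of this Hes6 probe set ends in _x_at, so it may bind other transcripts. A second Hes6 probe set gave 0.05 (SE 0.15), at 1647 ± 187 in WT and 1701 ± 100.4 in cKO (SD, n = 3). Hes6 was thus the only gene of the 10 whose probe sets differed in sign.

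Hes5, a target of Notch signalling in radial glia, was read by 2 probe sets. The brighter, whose name ends in _x_at and which may therefore bind other transcripts, read 748, 559 and 382 in WT and 1112, 1116 and 470.2 in cKO. The high values were cKO 1 and cKO 2, and the lowest value of each group was on the array numbered 3, 0.74 (log2) below the others in WT and 1.22 below in cKO. At least that far below on both arrays were 42 genes (0.231%), counting Hes5. The log2 fold change was 0.61 (SE 0.40, 95% interval -0.36 to 1.58, limma adjusted p = 0.753), with overlapping groups.

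With the arrays numbered 3 as a block, the SE of this Hes5 value fell to 0.17 and the limma adjusted p was 0.263. Without both arrays the log2 fold change was 0.77 (SE 0.19, limma adjusted p = 0.349). The other Hes5 probe set read 428, 282 and 326 in WT and 419.6, 536 and 414 in cKO, and only WT 1 lay within the cKO range. It did not have the low values on the arrays numbered 3, with deviations of -0.09 and -0.19, and gave 0.40 (SE 0.20) in the fit over all probe sets (limma adjusted p = 0.747). Hes5 was thus higher in cKO by its means on both probe sets, and passed on neither in any fit run.

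**Figure D2:**
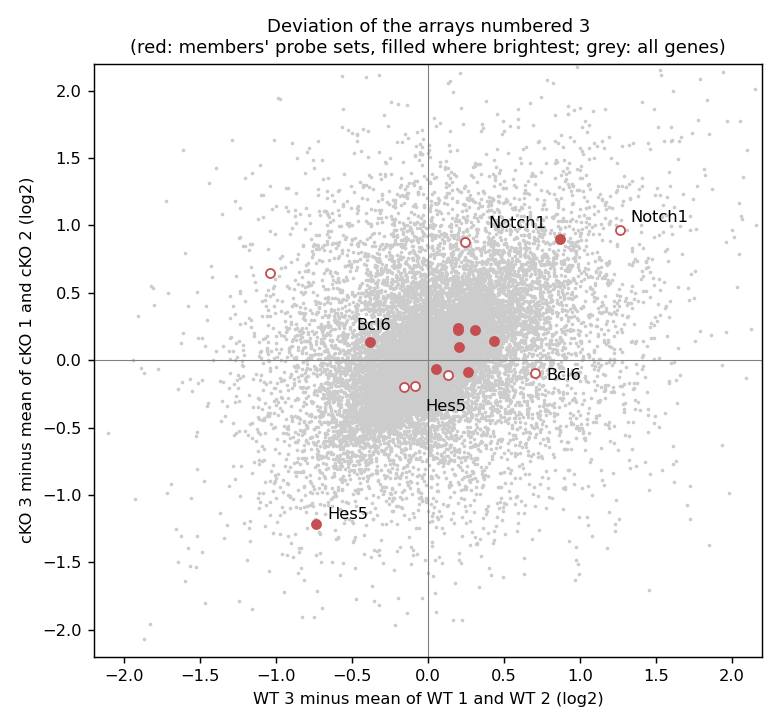
Deviation of WT 3 from the mean of WT 1 and WT 2 (horizontal, log2) against that of cKO 3 from the mean of cKO 1 and cKO 2 (vertical, log2), for the 17 probe sets of the 10 genes (red, filled where brightest of the gene) and for all 18193 genes (grey, 54 of them outside the axes). Both Notch1 probe sets lie at the upper right, the brighter Hes5 probe set at the lower left at -0.74 and -1.22, and the other Hes5 probe set near 0.

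A window before a Hes5 start is shown because Hes5 is a direct target of the Notch nuclear complex. Sequences come from RefSeq, build GRCm38.p6, which gave windows of 250 bases before to 50 after a start for 8 of the 10 genes (11 windows; Hes1 and Mfng are not among them). The Hes5 stretch, chr4:154960673-154960922 on the + strand, is the 250 bases before the start that the table uses, read 5′ to 3′. That start lies within the annotated gene, 297 bases after its 5′ end, and all 250 bases of the stretch are inside the annotated span. Capitals mark the letters GTGGGAA, the core bound by Rbpj, on either strand.
Hes5: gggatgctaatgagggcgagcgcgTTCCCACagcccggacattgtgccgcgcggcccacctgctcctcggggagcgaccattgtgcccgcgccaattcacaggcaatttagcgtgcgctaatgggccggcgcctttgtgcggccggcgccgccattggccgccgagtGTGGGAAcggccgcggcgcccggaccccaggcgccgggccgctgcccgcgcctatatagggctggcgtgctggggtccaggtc
These letters begin 226 bases and 83 bases before that internal start, the first on the reverse strand. Of the 11 windows of these genes, 1 held GTGGGAA, against 6.38% of all 32851 windows of that length. The N-box CACNAG, which Hes proteins bind, was in 5 of the 11 (windows of Notch1, Notch2, Dll1, Hes6 and Bcl6), against 42.5% of all windows.

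Bcl6 lies on the reverse strand of chromosome 16, at 23965050 to 23988866 (GRCm38.p6). Its brightest probe set read 502, 457 and 364 on WT 1, WT 2 and WT 3 and 107, 168 and 149 on cKO 1, cKO 2 and cKO 3. The highest cKO array was less than the lowest WT array. Means were 441 ± 70.2 in WT and 141 ± 31.2 in cKO (SD, n = 3), a ratio of 0.320. The log2 fold change was -1.55 (SE 0.20, 95% interval -2.04 to -1.06), past the threshold over all genes (limma adjusted p = 0.0389).

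The call was close to the threshold. It ended in each fit that left out 1 array, where the limma adjusted p was 0.160 without WT 1, 0.142 without WT 2, 0.0726 without WT 3, 0.114 without cKO 1, 0.0950 without cKO 2 and 0.109 without cKO 3. The log2 fold change in these fits ran from -1.67 to -1.38. Over all genes, the number called lower was 44 in the main fit and between 1 and 9 in these fits. The Bcl6 call also ended when adjusted over all 45037 probe sets (limma adjusted p = 0.0671), where 0.0511% of probe sets were called lower. It ended too with the arrays numbered 3 as a block (limma adjusted p = 0.0721), where 37 genes were called lower. Without both of those arrays the log2 fold change was -1.72 (limma adjusted p = 0.195), and 0 of all genes were called lower.

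A second, dimmer Bcl6 probe set did not show this fall. It read 90.5, 48.2 and 119 in WT and 75.3, 54.4 and 59.0 in cKO, and the cKO arrays lay inside the WT range. Its log2 fold change was -0.31 (SE 0.29, 95% interval -1.01 to 0.39) in the fit over all probe sets. Averaging both probe sets gave -0.93, short of the threshold (limma adjusted p = 0.0868). Which transcripts each probe set reads was not tested.

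**Figure D3:**
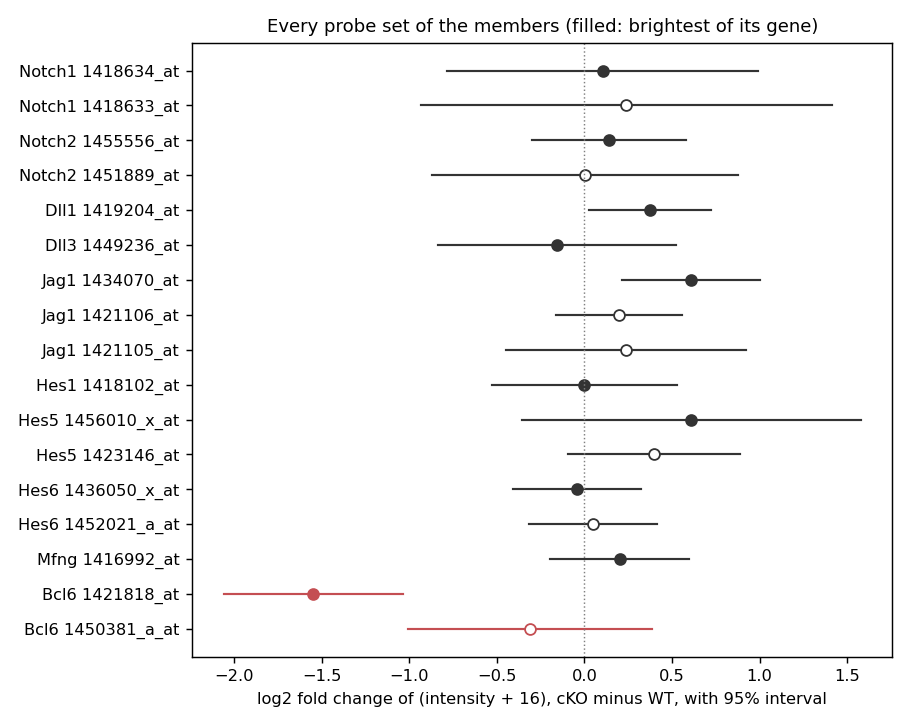
Log2 fold change of (intensity + 16), cKO minus WT, with its 95% interval from limma over all probe sets, for the 17 probe sets of the 10 genes, filled where the probe set is the brightest of its gene and red for Bcl6. Intervals of 3 probe sets lie off 0: the brighter one of Bcl6 at -1.55, that of Dll1 at 0.38 and the brightest of Jag1 at 0.61.

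RefSeq gave 2 Bcl6 starts, and both stretches of 250 bases before a start are shown because Bcl6 is the gene of the list that fell and is known to repress its own promoter. The first stretch is chr16:23988853-23989102, whose start lies 14 bases inside the 5′ end of the annotated gene, so that its last 14 bases overlap the gene. The second, chr16:23981284-23981533, lies wholly within the gene, and both are on the - strand. Capitals mark the letters TTCCTNGAA, a core that Bcl6 binds and that also fits STAT factors.
Bcl6 start 1: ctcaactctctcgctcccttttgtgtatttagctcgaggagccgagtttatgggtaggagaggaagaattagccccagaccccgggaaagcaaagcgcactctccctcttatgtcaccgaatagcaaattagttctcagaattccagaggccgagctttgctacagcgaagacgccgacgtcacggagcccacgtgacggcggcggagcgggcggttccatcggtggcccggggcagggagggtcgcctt
Bcl6 start 2: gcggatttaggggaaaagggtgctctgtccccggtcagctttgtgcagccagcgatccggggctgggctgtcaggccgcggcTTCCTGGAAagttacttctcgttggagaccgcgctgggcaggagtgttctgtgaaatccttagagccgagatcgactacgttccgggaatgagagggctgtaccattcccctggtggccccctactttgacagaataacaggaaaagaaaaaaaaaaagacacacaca
The match begins 168 bases before the second start. It is the only window of the 11 with these letters on either strand, against 1.59% of all windows.

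Bcl6 acts with corepressors, and those measured were Bcor, Bcorl1 and Sirt1, the deacetylase it recruits to Hes5. None passed. Bcor read 842, 789 and 723 in WT and 954, 861 and 876 in cKO, with no overlap and a log2 fold change of 0.19 (SE 0.12). Bcorl1 and Sirt1 were at 0.16 each, with overlapping groups. The paralogue Bcl6b was at -0.34 (SE 0.28), with overlap.

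The genes whose pattern over the 6 arrays was most like that of Bcl6 were Adamts20, Gpr12, Rnf112, Sipa1l1 and Rftn2, by Pearson correlation of log2 values among 10794 genes with a mean intensity of at least 100. Their correlations were 0.996, 0.993, 0.993, 0.990 and 0.985. The 6 points include the difference between genotypes, and all 5 genes were lower in every cKO array. Rnf112, a RING finger protein of the nervous system, averaged 399 ± 48.9 over the WT arrays and 115 ± 19.2 over the cKO arrays (SD, n = 3). Adamts20, a secreted metalloprotease, averaged 618 ± 20.9 and 415 ± 34.3.

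Beyond the 10 genes, 62 genes of the pathway and of Bcl6's partners were listed by role, and 56 were measured. In limma 0 of them passed in either direction, against 0.385% called higher and 0.242% called lower of all genes. At an unadjusted p below 0.05, 1 was higher and 5 were lower, against 5.17% and 4.39% of all genes. Every cKO array was above every WT array for 3 of the 56 (5.36%) and below for 8 (14.3%), against 7.9% and 7.64% of all genes. The median log2 fold change was 0.02, against 0.01 for all genes. These genes too were listed with earlier results of these data known.

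On their brightest probe sets, receptors and ligands outside the list had overlapping groups except for Dlk2 and Dner, and 0 passed. Notch3 was at 0.21 (SE 0.26) and Notch4, a receptor of endothelium, at 0.09 (SE 0.30), and a dim further probe set of Notch4, with a WT mean of 24.6, was at 0.60 (SE 0.26) without overlap. Of the ligands, Dll4, the Delta-like ligand of endothelial tips, was at 0.06 (SE 0.18) with means of 56.9 and 58.9, and Jag2 at 0.10 (SE 0.17). Their second probe sets pointed the other way, with overlapping groups, at -0.37 (SE 0.48) for Dll4 and -0.44 (SE 0.21) for Jag2, where the WT mean of 124 was close to the 118 of the brightest. Dlk2, a non-canonical relative, read 132, 145 and 146 in WT and 91.8, 90.5 and 128 in cKO, a log2 fold change of -0.41 (SE 0.16). A second Dlk2 probe set, with overlapping groups, was at -0.02. Dner, a neuronal ligand, was at -0.30 (SE 0.14).

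None of the enzymes that act on receptors and ligands passed. Lfng and Rfng, the other fringe enzymes, were at 0.08 (SE 0.18) and -0.14 (SE 0.14). Poglut1, which adds glucose to Notch, was at 0.31 (SE 0.19), and its groups overlapped. Neurl1b, a ubiquitin ligase for ligands, read 297, 238 and 287 in WT and 211, 217 and 212 in cKO, a log2 fold change of -0.33 (SE 0.13) with no overlap. Among the gamma-secretase genes, Psen2 was at 0.20 (SE 0.12) without overlap and Ncstn at 0.26 (SE 0.19) with overlap.

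In the nuclear complex, Rbpj was at 0.07 (SE 0.12), while the Groucho corepressors, which Hes proteins recruit, had no common direction and 0 passed. Tle1 read 1565, 1307 and 1665 in WT and 2067, 2028 and 2331 in cKO, a log2 fold change of 0.50 (SE 0.14, limma adjusted p = 0.291). Its second probe set gave 0.53 (SE 0.17), also with every cKO array above. Tle4, which marks deep layer neurons as well, read 3844, 3679.5 and 2084 in WT and 1169, 2005 and 1332 in cKO, a log2 fold change of -1.07 (SE 0.31, limma adjusted p = 0.293). Of its other probe sets, one gave -0.99 without overlap and one 0.17 with overlap. Tle2 and Tle3 were at -0.13 and -0.10, with overlapping groups.

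The other Hes and Hey genes had overlapping groups. Hey1, a target of Notch in progenitors and vessels, was at -0.12 (SE 0.17) and Hey2 at 0.06 (SE 0.24). Nrarp, with a WT mean of 2336, was at -0.06 (SE 0.21). Hes3, at 0.95 (SE 0.46), had a WT mean of 5.95, so its size depends on the pseudocount of 16. Hes2 and Hes7 were dim as well, with WT means of 10.6 and 23.7. Over all 10 genes of the target group, Hes1, Hes5 and Hes6 among them, 6 were above 0 and 4 below, with a median of 0.04. The 6 include the dim Hes2, Hes3 and Hes7. Of all 18193 genes, 9313 were above 0.

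Of the regulators of Notch turnover, 0 passed. Of 10 measured, 7 had a log2 fold change below 0, the median was -0.19, and 4 had every cKO array below every WT array. Over all genes, 8880 of 18193 were below 0, the median was 0.01, and 7.64% had every cKO array below. Dtx3l, a Deltex-family ubiquitin ligase, had the smallest p of the pathway genes. It read 233, 202 and 217 in WT and 147, 134 and 136 in cKO, a log2 fold change of -0.59 (SE 0.12, limma adjusted p = 0.134), and its second probe set gave -0.85 (SE 0.16). Fbxw7, the ligase that targets the active Notch fragment for degradation, read 1525, 1479 and 1411 in WT and 1209, 1167 and 1153 in cKO, at -0.32 (SE 0.11, limma adjusted p = 0.415). Dtx1 was at -0.49 (SE 0.21) and overlapped. Numb, the inhibitor passed on unequally in cell division, was at 0.0004 (SE 0.13).

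**Figure D4:**
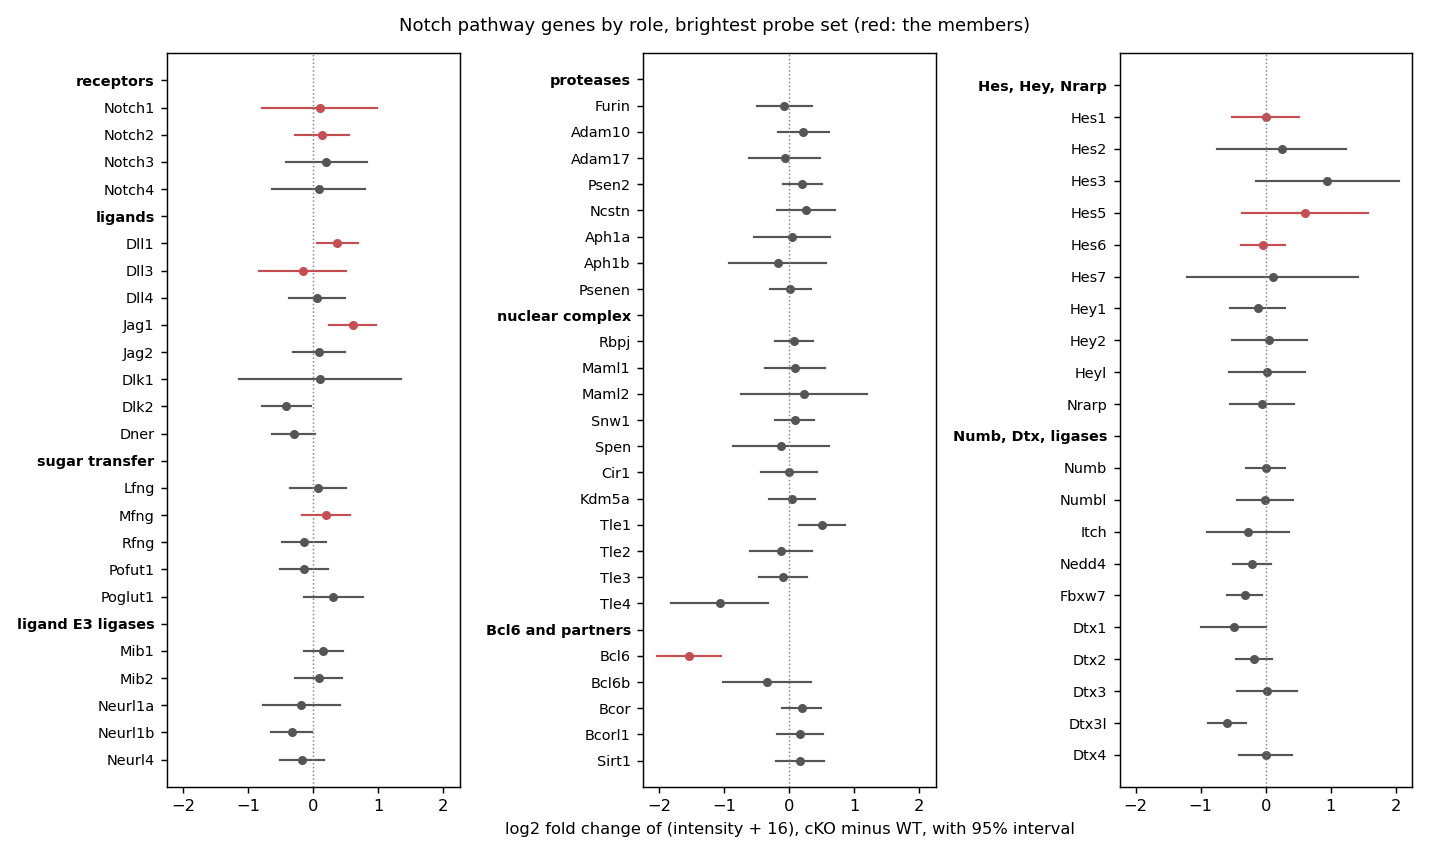
Log2 fold change of (intensity + 16), cKO minus WT, with its 95% interval, for the brightest probe set of each measured pathway gene, grouped by role, with the 10 listed genes in red. Most intervals cross 0, the receptors sit between 0.09 and 0.21, and the lowest values are Bcl6 at -1.55 and Tle4 at -1.07.

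The tissue holds several cell types that use Notch signalling, and in bulk RNA fewer cells of a type and less RNA per cell cannot be told apart. Radial glia markers, the cells in which Hes1 and Hes5 act, had a median log2 fold change of 0.02 over 8 genes, with 0 called, and their summed intensity ran from 47266 to 56703 in WT and from 48837 to 54337 in cKO. Every cKO array was above every WT array for 2 of the 8 and below for 0, against 7.9% and 7.64% of all genes. The sum over 10 endothelium markers was lower in cKO, from 1513 to 1656 against 1881 to 2116 in WT, with 9 of 10 genes below 0 and 0 called. For 4 of these 10, every cKO array was below every WT array, and for 0 above, against 7.64% and 7.9% of all genes. Jag1, Notch4, Dll4 and Hey1 are also expressed in vessels, and the part of endothelium in their values was not tested. Young neuron markers had a median of -0.12 over 10 genes, with 0 called. Their sum ran from 79393 to 93514 in WT and from 80757 to 91274 in cKO. Every cKO array was below every WT array for 3 of the 10, and above for 1, against 7.64% and 7.9% of all genes. Their log2 fold changes ran from -0.54 to 0.34.

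Ventral telencephalon markers had a median of 0.19 over 9 genes, with 0 called and sums of 3361 to 4801 in WT and 4175 to 4551 in cKO. For 3 of these 9, every cKO array was above every WT array, and for 0 below, against 7.9% and 7.64% of all genes. Microglia markers had a median of -0.02 over 8 genes, 0 called, with sums of 1339 to 1534 in WT and 1092 to 1513 in cKO. Meninges and mesenchyme markers summed to 2265 on cKO 3 against 348 to 709.5 on the other arrays, with 0 of 10 called. The dimmest Jag1 probe set was also highest on cKO 3, and the part of these cells in it was not tested. Of 8 measured erythroid markers 0 were called.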

How the data were processed

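RNA of 3 WT and 3 cKO arrays was compared. The deposited file holds linear array intensities, 1 per probe set and array, made with the Affymetrix Expression Console per the submitters' processing notes. Its version and how probes were summarised are not stated in the sources. The shared trimmed mean (2% at each end) shows a common scaling. All sample columns were used, and 3 arrays per group limit the precision.

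Values were taken to log2(intensity + 16) and fitted with limma 3.58.1 in R 4.3.3 (lmFit, eBayes, genotype as the only term), with p-values adjusted by Benjamini-Hochberg and called below 0.05. Each gene was represented by its brightest probe set among those annotated to it alone (34945 probe sets with 1 gene, 932 with several, 9160 with none). Further probe sets were read from the same fit over all probe sets. Intervals are 95%. The fit was tested on simulated data.

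The members and lists were chosen with earlier results of these data known. Named are the members, Setdb1, paralogues of members, pathway genes past the threshold and up to 6 more per direction by p, and the 5 genes most like Bcl6. Dner, Emx2, Eomes, Neurod6, Neurog2, Numb, Rbpj, Bcorl1, Sirt1, Tle2, Tle3, Hes2, Hes7 and Nrarp were named after their values were seen. Alternatives were other normalizations, pseudocounts, filters, probe set summaries, blocks and left-out arrays. The fits of further probe sets without the arrays numbered 3, or with them as a block, were chosen after seeing the data.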

Additional observations from a re-analysis of the deposited data

How the results depend on the processing

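The count of 1 member called lower, which is Bcl6, stayed at 1 with quantile normalization, array medians, a pseudocount of 64, dim genes left out, trend and robust settings, and _x_at and _s_at probe sets left out. It was 0 with a pseudocount of 1 (Bcl6 limma adjusted p = 0.0828), over all probe sets, with the mean of probe sets, with the replicate block (0.167), with the arrays numbered 3 as a block, without both of those arrays and, as a range, from 0 to 0 in the fits that left out 1 array. Bcl6 stayed lower in all 18 alternatives, from -1.72 to -0.93, with adjusted p from 0.00469 to 0.195. Over all genes limma then called 17 with the replicate block, against 114. Deviations of same-numbered arrays correlated at 0.07, 0.17 and 0.37. WT 2 and WT 3 correlated best with the cKO array of the same number, and WT 1 with cKO 2 (0.10). These correlations do not settle whether the replicate numbers pair the arrays.

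No member was called higher and no other pathway gene was called under any alternative run. Values near 0 changed sign, and the cause was not tested. Hes1 came to 2.8e-05 with a pseudocount of 1, to 0.027 without both arrays numbered 3, and ran from -0.22 to 0.11 when 1 array was left out. Hes6 came to 0.051 without _x_at and _s_at probe sets, to 0.0041 with the mean of probe sets, and ran from -0.14 to 0.030. Notch1 ran from -0.20 to 0.39 and Dll3 from -0.36 to 0.10. The dim Notch2 probe set came to -0.56 without both arrays numbered 3. With 3 arrays per group, 95% intervals were as wide as -0.78 to 0.99 for Notch1 and -0.36 to 1.58 for Hes5.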
